A study of Mus musculus with 42 samples.

Results

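Irradiated thymus from mice carrying the RP allele of Trp53 was set against irradiated thymus from mice without any functional Trp53 allele, to see how close the RP allele came to a null allele 4 h after irradiation. The libraries were chosen by their labels, as all irradiated thymus libraries of genotype p53 RP/- (RP-649, RP-653, RP-654 and RP-656, named by genotype and animal number) and of genotype p53 null (Null-593, Null-604, Null-856 and Null-857). These were 8 of the 42 samples of the series. RP mice carried the mutant allele over a null allele, so both groups had at least 1 null copy, and Null mice had no other. Irradiated thymus of 4 AD mice, which had the other mutant allele over a null allele, and of 4 Het mice, which had 1 wild-type allele over a null allele, served for orientation. All mice were 4 weeks old and of a mixed background, 50% BALB/C and 50% C57BL6. The alterations were germline, so every cell of the organ carried them. The amino acid change behind RP and AD, the part of Trp53 removed in the null allele, the radiation dose and the sex of the mice were not given in the labels.

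p53 is a transcription factor that is held at a low level by the ubiquitin ligase Mdm2 and is stabilised when DNA breaks activate the ATM and Chk2 kinases. It binds DNA as a tetramer made of paired dimers, at response elements built from a pair of half-sites, and switches on genes of growth arrest, apoptosis, DNA repair and its own feedback control. Immature thymocytes are among the most radiosensitive cells of the body, and their death after irradiation is known to depend on p53.

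To show the kind of sequence that this regulation reads, the 250 bases upstream of RefSeq transcription starts on GRCm38.p6 were searched on both strands for the p53 half-site consensus. The consensus is a palindrome, so both strands give the same matches. Cdkn1a, which encodes the cyclin-dependent kinase inhibitor p21, is shown with Ccng1 and Bax because they are p53 targets that set RP apart from Het mice in the results, and Xaf1 and Nlrp1a because they are genes that set RP apart from Null mice. All are written 5′ to 3′ on the strand of the gene, and capitals mark half-site matches.
Cdkn1a, chr17:29090729-29090978, plus strand: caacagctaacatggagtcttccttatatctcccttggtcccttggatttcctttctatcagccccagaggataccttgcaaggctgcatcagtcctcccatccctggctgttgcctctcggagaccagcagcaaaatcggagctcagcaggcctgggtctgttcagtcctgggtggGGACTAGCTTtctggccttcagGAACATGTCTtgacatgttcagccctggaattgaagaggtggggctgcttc
Ccng1, chr11:40755287-40755536, minus strand: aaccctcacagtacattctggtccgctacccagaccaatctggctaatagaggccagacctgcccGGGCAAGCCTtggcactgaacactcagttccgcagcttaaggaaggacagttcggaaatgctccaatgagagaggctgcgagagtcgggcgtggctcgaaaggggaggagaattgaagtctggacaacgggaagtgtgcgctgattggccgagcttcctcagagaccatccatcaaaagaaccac
Bax, chr7:45466899-45467148, minus strand: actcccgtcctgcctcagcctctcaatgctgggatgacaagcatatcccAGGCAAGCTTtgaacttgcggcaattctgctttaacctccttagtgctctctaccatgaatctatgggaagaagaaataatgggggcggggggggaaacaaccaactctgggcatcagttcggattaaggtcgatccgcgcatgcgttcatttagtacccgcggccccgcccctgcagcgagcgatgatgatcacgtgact
Xaf1, chr11:72301379-72301628, plus strand: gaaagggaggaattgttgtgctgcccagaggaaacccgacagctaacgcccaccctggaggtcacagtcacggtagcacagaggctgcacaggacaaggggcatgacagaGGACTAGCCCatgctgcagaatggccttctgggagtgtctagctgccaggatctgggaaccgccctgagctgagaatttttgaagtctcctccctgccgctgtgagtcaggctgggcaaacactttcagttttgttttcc
Nlrp1a, chr11:71144705-71144954, minus strand: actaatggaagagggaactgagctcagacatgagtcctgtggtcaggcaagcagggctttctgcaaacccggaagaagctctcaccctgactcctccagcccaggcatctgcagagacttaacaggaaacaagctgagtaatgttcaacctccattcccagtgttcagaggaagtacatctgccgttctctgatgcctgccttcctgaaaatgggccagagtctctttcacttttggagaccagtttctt
The upstream start of Cdkn1a had 2 matches, which began 73 and 51 bases before it. Another Cdkn1a start, with the window chr17:29093519-29093768 (not shown), had 0 matches. Ccng1 had 1 match, 185 bases before the start, Bax had 1, 201 bases before it, and Xaf1 had 1, 140 bases before it. The Nlrp1a window held none, which says only that these letters are not in this window. Among other genes called against Null, whose windows are not shown, Trp53 had 1 match and Ybx2 and Gucy2e had 0. Of all RefSeq promoter windows of the same length, 7.13% (2341 of 32851) held at least 1 match, and 19.2% of the windows of p53 target genes did (14 of 73, from 60 genes of the lists used here). The targets shown each had a match, so they do not stand for the lists, where 14 of the 60 genes had one. A match is a description of the letters and not a measured binding site.

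Libraries held 29.8e6 to 33.1e6 counts in RP mice and 29.5e6 to 32.4e6 in Null mice, and mitochondrial genes took 2.24 to 2.7% of counts in RP and 2.34 to 2.89% in Null. Transcripts of thymocyte marker genes, among them Bcl11b and Dntt, summed to 16600 to 18800 CPM (counts scaled to library size, per 1e6) in RP and 14400 to 18500 CPM in Null, as thymus should show. Null-604 stood apart, with 659 CPM of cytotoxic lymphocyte markers, of which Gzma (granzyme A) made up 612 CPM, against 81.0 to 99.4 CPM of these markers in RP libraries and 80.8 to 96.3 CPM in the other Null libraries. Hepatocyte markers summed to 68.8 CPM in RP-653 and 38.1 CPM in RP-656, and to between 7.26 and 12.4 CPM in the other 6 libraries. The X-inactivation transcript Xist was high in RP-649, RP-653, Null-593 and Null-604 (819 to 1140 CPM) and low in the other 4 libraries (2.97 to 33.9 CPM), so both groups were split in the same way, and these sex-linked genes were read after the values were seen. Het-595 had both Xist (1150 CPM) and the Y-linked Ddx3y (197 CPM), and Het-631 had both at intermediate levels (132 and 150 CPM). This touches values set against Het mice and the gene sets taken from Het against AD thymus. Het libraries also enter the filter and the spread estimated over all 16 libraries, on which every p rests. In these bulk samples fewer cells of a type and less RNA per cell cannot be told apart.

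In edgeR's fit of all 16 libraries, RP and Null thymus differed in very few genes, and all of these lay on chromosome 11, which carries Trp53. Trp53 itself, Ybx2, Nlrp1a, Nlrp1c-ps and Gucy2e were higher in RP than in Null thymus, and Xaf1 and Gm6685 were lower. No gene of the p53 target lists was called. Of 22206 genes tested with edgeR's quasi-likelihood test, 7 passed a Benjamini-Hochberg adjusted p of 0.05, 0.0315% of the genes, 5 of them higher (0.0225%) and 2 lower (0.00901%). RP against Het thymus, in the same fit, gave 4163 genes (18.7%), 1894 higher (8.53%) and 2269 lower (10.2%). The count against Null was 4 without Null-604 and 4 without RP-656. It was 8 without Null-593 and 6 without Null-856, with 7 and 5 of these on chromosome 11. DESeq2 called 30 genes, among them the 7 named above, and 12 of the 30 lay on chromosome 11.

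Trp53 was read first, since it checks the labels. It lies at chr11:69580359-69591873 on the plus strand (GRCm38). Trp53 stood at 33.1, 35.9, 32.4 and 33.2 CPM in RP-649, RP-653, RP-654 and RP-656, against 18.9, 21.1, 19.3 and 20.4 CPM in Null-593, Null-604, Null-856 and Null-857, and library values below keep this order of animals. Every RP library lay above every Null library, and the Null libraries were not near 0. The log2 fold change was 0.76 ± 0.07 (standard error, n = 4 mice each; adjusted p = 1.11e-05 in edgeR), a 1.69-fold higher level with a 95% interval of 1.53 to 1.86. Het mice, with 1 wild-type copy, had 31.4 ± 1.15 CPM (SD, n = 4), and the difference of RP from Het was 0.10 ± 0.07 (adjusted p = 0.333). AD mice had 35.4 ± 2.4 CPM (SD, n = 4). In every genotype the count takes in whatever part of the gene the null allele still transcribes.

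Ybx2, which encodes a germ cell Y-box protein that binds DNA and mRNA, lies 0.355 Mb downstream of the Trp53 start at chr11:69935796-69941605. It stood at 11.9, 10.7, 13.4 and 9.99 CPM in RP mice, against 0.615, 0.799, 1.58 and 1.33 CPM in Null mice. The groups did not overlap, and the fold change was 10.5 (log2 3.40 ± 0.35, adjusted p = 0.000241 in edgeR). The other genes of the Y-box family differed little between the groups. Ybx1 averaged 434 ± 18.5 CPM in RP and 464 ± 113 CPM in Null (SD, n = 4 each), with Null-604 far above the other Null libraries, and Ybx3 averaged 41.4 ± 1.24 CPM in RP and 40.6 ± 2.15 CPM in Null. Neither was called, with log2 fold changes of -0.10 ± 0.12 for Ybx1 and 0.03 ± 0.08 for Ybx3.

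The Nlrp1 genes form a cluster of inflammasome sensors, which start caspase-1 activation, 1.51 to 1.66 Mb from Trp53. Nlrp1a (chr11:71092236-71144704) had 1.43, 1.46, 1.43 and 1.55 CPM in RP mice, against 0.162, 0.0333, 0.121 and 0.0333 CPM in Null mice. These were 184 counts over the RP libraries and 11 over the Null libraries, a ratio of 16.6 with a 95% counting interval of 9.04 to 33.7, and the log2 fold change was 3.99 ± 0.37 (adjusted p = 1.86e-05 in edgeR). The groups were far apart and the RP libraries close together. The pseudogene Nlrp1c-ps (chr11:71242430-71285232) had 1.33, 1.86, 1.84 and 1.61 CPM in RP mice, against 0.0333 CPM in Null-604 and 0 in the other 3 Null libraries. That was 208 counts against 1, a ratio of 206 with a 95% counting interval of 36.5 to 8170 (adjusted p = 2.69e-07 in edgeR), and the fitted log2 value of 7.09 drawn in the figures depends on the prior count. Nlrp1b, which lies between them, was not called, with 2.79, 3.72, 2.81 and 2.59 CPM in RP mice, against 1.07, 0.899, 2.0 and 1.2 CPM in Null mice. Its groups did not overlap either, and its log2 difference was 1.19 ± 0.22 (adjusted p = 0.0996). The 3 are close copies of one another, so the split of reads among them is uncertain.

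Gucy2e, a membrane guanylate cyclase known from photoreceptors, lies 0.362 Mb on the other side of Trp53, at chr11:69218117-69237036. It had 1.06, 0.73, 0.78 and 1.04 CPM in RP mice, against 0.227, 0.0666, 0.091 and 0.267 CPM in Null mice. The groups did not overlap, at 113 counts over the RP libraries and 20 over the Null libraries, and the log2 fold change was 2.45 ± 0.37 (adjusted p = 0.0148 in edgeR). Its call was lost when RP-649, RP-656, Null-604 or Null-856 was left out, with adjusted p of 0.0571, 0.0682, 0.0689 and 0.088. It was also lost when only the RP and Null libraries were fitted (adjusted p = 0.0573 in edgeR).

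The genes that were lower in RP than in Null thymus were Xaf1 and Gm6685. Xaf1, an interferon-inducible gene whose product binds the caspase inhibitor XIAP, lies 2.72 Mb from Trp53 at chr11:72301629-72313733. It had 14.4, 18.9, 15.9 and 17.5 CPM in RP mice, against 28.7, 28.0, 31.2 and 33.1 CPM in Null mice. The groups did not overlap (log2 fold change -0.86 ± 0.15, adjusted p = 0.047 in edgeR). Gm6685, a predicted gene, lies 41.2 Mb away at chr11:28339104-28339867, with 2.35, 1.89, 2.25 and 1.52 CPM in RP mice, against 4.17, 3.33, 4.28 and 3.87 CPM in Null mice. Its groups did not overlap (log2 fold change -0.97 ± 0.16, adjusted p = 0.047 in edgeR). Xaf1 and Gm6685 were close to the threshold, and each lost its call when any one of the 8 libraries was left out, with adjusted p up to 0.261 for Xaf1 and 0.201 for Gm6685. With only the RP and Null libraries fitted, Gm6685 lost its call (adjusted p = 0.169 in edgeR) and Xaf1 kept it (adjusted p = 0.00306).

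The same genes were set beside the other genotypes to see whether their levels were particular to the RP allele. The fits of AD and of Het against Null used the same Null libraries, so their values are given side by side and not as a further test. In AD against Null thymus, where 0.027% of genes were called, the log2 fold changes were 0.83 ± 0.07 for Trp53, 3.63 ± 0.35 for Ybx2, 3.57 ± 0.38 for Nlrp1a, 2.31 ± 0.37 for Gucy2e, -0.95 ± 0.15 for Xaf1 and -0.60 ± 0.16 for Gm6685, and all but Gm6685 were called. In Het against Null thymus, where 19.2% of genes were called, they were 0.66 ± 0.07, 3.09 ± 0.35, 3.99 ± 0.37, 2.23 ± 0.38, -0.80 ± 0.15 and -0.73 ± 0.16 in the same order of genes, all called. Nlrp1c-ps, with 1 count over the Null libraries, was called in both. RP mice differed from Het mice in 1 of the 7 genes: Nlrp1c-ps averaged 1.66 ± 0.248 CPM in RP and 2.72 ± 0.526 CPM in Het (SD, n = 4 each; log2 fold change -0.71 ± 0.22, adjusted p = 0.0318 in edgeR). For Ybx2, the Het libraries were spread from 5.25 to 17.2 CPM, with Het-631 highest, so its difference of RP from Het had a wide interval (-0.31 to 0.93 on the log2 scale). None of the 7 genes was called in RP against AD thymus.

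**Figure D1:**
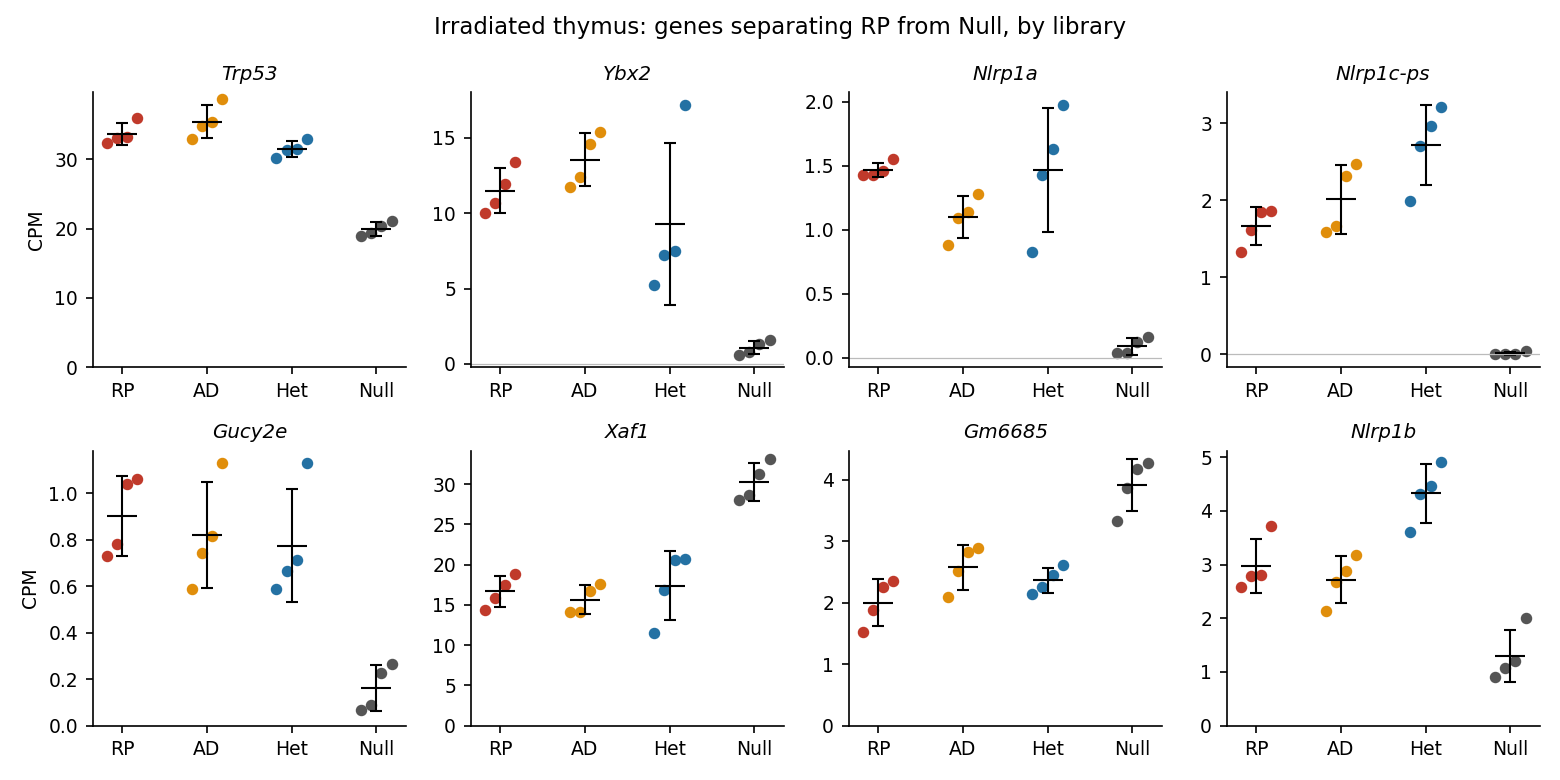
CPM of the 7 called genes and of Nlrp1b in each irradiated thymus library, with RP, AD, Het and Null side by side, points ordered by value within a genotype, and bars for the mean and 1 SD (n = 4 mice). RP lies apart from Null in every panel, with Trp53 at 32.4 to 35.9 CPM in RP and 18.9 to 21.1 CPM in Null, and AD lies near RP.

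In the plot by library, every AD and Het library also lay on the RP side of the Null libraries for each of these genes. Genes near Trp53 are inherited together with the Trp53 allele, and the haplotype around the gene was not given in the labels, so the allele and the chromosome segment that carries it cannot be told apart here.

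Most of the genes that edgeR called lay around Trp53. Within 10 Mb of its start, 421 genes were tested, of which 5 were called higher and 1 lower, and 7.36% had an unadjusted p under 0.05, against 5.18% of all genes tested. The share was 8.33% of 96 genes within 1 Mb, 12.2% of 41 genes at 1 to 2 Mb, 6.56% of 61 genes at 2 to 5 Mb and 5.86% of 222 genes at 5 to 10 Mb. On other chromosomes, or with no position, it was 5.15% of 20504 genes, and none of these was called by edgeR. The median absolute log2 difference within 1 Mb was 0.118, against 0.10 over all genes, so the larger differences came from a few of the neighbours of Trp53.

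Further genes near Trp53 had unadjusted p under 0.001 and were not called by edgeR. With all libraries DESeq2 called Trim16, Fbxw10 and Myh10 (adjusted p = 0.000749, 0.00316 and 0.035 in DESeq2). Trim16, a tripartite-motif protein gene 6.76 Mb away, had 2.89, 3.25, 3.71 and 3.87 CPM in RP mice, against 3.24, 13.2, 11.8 and 10.8 CPM in Null mice. Fbxw10, which encodes an F-box protein and overlaps Trim16 on the same strand, had 8.69, 6.83, 7.58 and 6.98 CPM in RP mice, against 7.99, 14.4, 18.4 and 15.8 CPM in Null mice. For both genes Null-593 lay among the RP values and the other 3 Null libraries lay well above them. Without Null-593 both were called lower, with log2 fold changes of -1.79 ± 0.16 for Trim16 (adjusted p = 3.8e-05 in edgeR) and -1.11 ± 0.13 for Fbxw10 (adjusted p = 0.000403), against -1.50 ± 0.30 and -0.91 ± 0.18 with all libraries (adjusted p = 0.177 each). Of the 8 edgeR runs with a library left out, this was the only 1 that called either gene. Myh10, a non-muscle myosin heavy chain gene 0.889 Mb from Trp53 that was chosen after its values were seen, had 37, 33.2, 38.8 and 36.4 CPM in RP mice, against 27, 20.7, 21 and 19.8 CPM in Null mice. Here Null-593 was again the Null library nearest to the RP values, and the log2 difference was 0.72 ± 0.17 (adjusted p = 0.461).

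**Figure D2:**
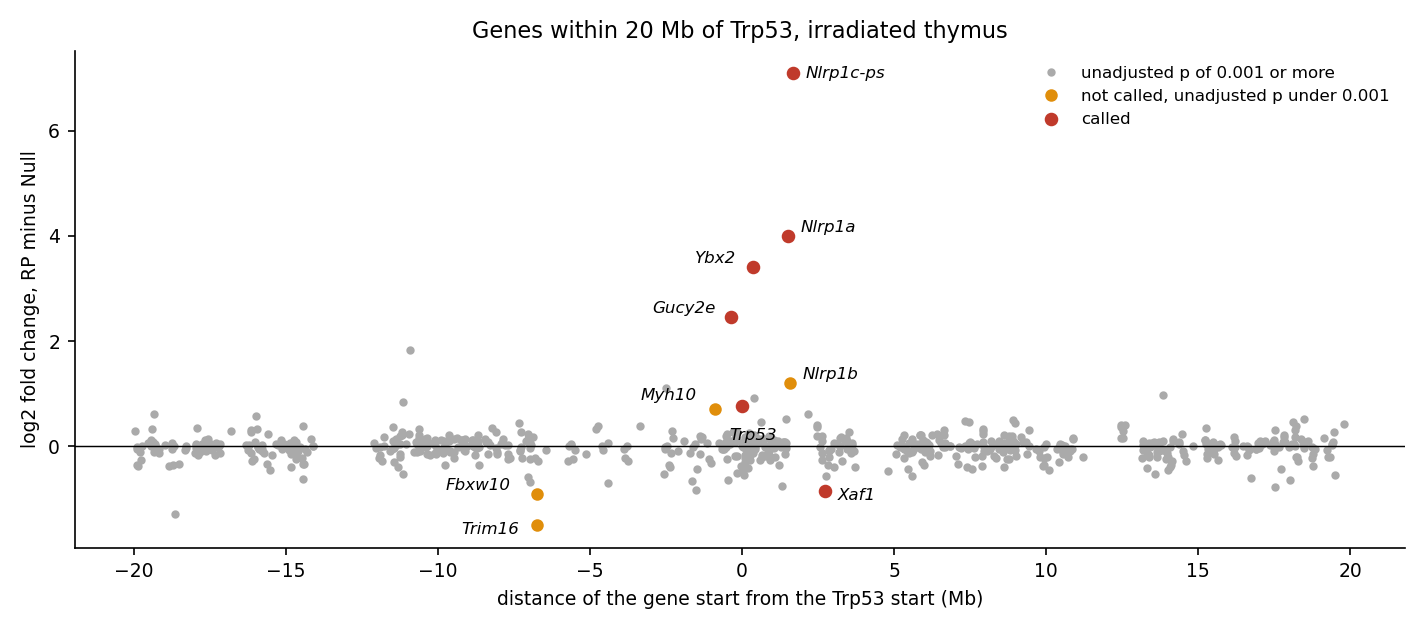
Log2 fold change, RP minus Null, of each gene tested within 20 Mb of Trp53, against the distance of its start from that of Trp53 in Mb. The called genes Gucy2e, Trp53, Ybx2, Nlrp1a, Nlrp1c-ps and Xaf1 lie between -0.362 and 2.72 Mb, while Trim16 and Fbxw10 (not called by edgeR) lie near -6.7 Mb and most other genes lie near 0.

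Targets of p53 did not separate RP from Null thymus, while they separated RP from Het thymus. Of 72 genes on the p53 target lists 71 were tested, and edgeR called 0 in RP against Null, with 2 at an unadjusted p under 0.05 and 0 called by DESeq2. Their median log2 fold change was -0.0109, against -0.0166 over all genes tested. In RP against Het, 44 were lower and 4 higher, with a median of -0.67, where 10.2% of all genes were lower and 8.53% higher. For 69 of the 71 the 95% interval of the difference from Null lay within 2-fold in both directions. The exceptions were 2 low genes of growth arrest, Rprm with 0.836 ± 0.304 CPM in RP and 0.544 ± 0.105 CPM in Null, and Gdf15, named after its value was seen, with 0.457 CPM in RP and 0.346 CPM in Null, against 15.2 CPM in Het.

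Growth arrest genes were led by Cdkn1a. It had 3.75, 4.28, 4.21 and 4.27 CPM in RP mice, against 3.5, 3.36, 3.31 and 4.2 CPM in Null mice, while Het mice had 38.6 to 44.9 CPM. RP and Null overlapped, and the log2 difference of RP from Null was 0.20 ± 0.12 (95% interval -0.04 to 0.45, adjusted p = 0.998), against -3.35 ± 0.11 from Het (adjusted p = 3.39e-13 in edgeR). Ccng1, which encodes cyclin G1, averaged 143 ± 5.92 CPM in RP and 141 ± 11.1 CPM in Null, against 989 ± 138 CPM in Het (SD, n = 4 each). Phlda3, a repressor of Akt signalling, averaged 8.42 ± 1.34 CPM in RP and 9.29 ± 1.97 CPM in Null, against 73.5 ± 9.49 CPM in Het. Zmat3, an RNA-binding protein gene, the stress sensor Sesn2 and the kinase gene Plk2 had log2 differences of RP from Null of -0.07 ± 0.13, -0.11 ± 0.14 and -0.14 ± 0.12, and of RP from Het of -2.82 ± 0.13, -2.51 ± 0.14 and -3.96 ± 0.12. Of 18 growth arrest genes, 14 were lower in RP than in Het thymus, against 10.2% of all genes. In RP against Null 0 were called by edgeR or DESeq2, with 0 at an unadjusted p under 0.05.

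Among the death genes, Bbc3, which encodes the BH3-only protein PUMA, came nearest to a difference from Null. It had 6.17, 7.0, 5.93 and 5.64 CPM in RP mice, against 3.5, 4.66, 4.37 and 5.1 CPM in Null mice, and 74.6 to 102 CPM in Het mice. Every RP library lay above every Null library, as in 2.3% of all genes, but the log2 difference of 0.49 ± 0.18 (unadjusted p = 0.0154, adjusted p = 0.85 in edgeR) did not pass the test. Its 95% interval, 0.11 to 0.87, reaches at most a 1.83-fold higher level, and RP lay 3.90 ± 0.18 below Het on the log2 scale (adjusted p = 8.04e-11). Bax, the pore-forming effector of apoptosis, had 12.8, 12.3, 12.2 and 13.1 CPM in RP mice, against 11.7, 14.6, 10.5 and 14.1 CPM in Null mice and 70.8 to 82 CPM in Het mice. The RP values of Bax lay inside the Null range, with a log2 difference of -0.01 ± 0.09 from Null and -2.62 ± 0.09 from Het.

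The remaining death genes named here all had a higher mean in Het than in RP and in Null thymus, and RP lay above Null for some of them and below it for others. Pmaip1 (NOXA) averaged 9.31 ± 1.07 CPM in RP and 10.3 ± 0.522 CPM in Null, against 63.9 ± 7.55 CPM in Het. The apoptosome scaffold Apaf1 averaged 103 ± 0.816 CPM in RP and 99.1 ± 4.58 CPM in Null, against 392 ± 19 CPM in Het. The nuclease gene Aen averaged 30.1 ± 1.54 CPM in RP and 31.3 ± 4.41 CPM in Null, against 211 ± 26.3 CPM in Het. The receptors Fas and Eda2r and the autophagy and death gene Trp53inp1 had log2 differences of RP from Null of 0.10 ± 0.11, -0.06 ± 0.25 and 0.03 ± 0.10, and of RP from Het of -1.10 ± 0.11, -3.75 ± 0.22 and -0.95 ± 0.10. Of 18 death genes 14 were lower and 1 higher in RP than in Het thymus, against 10.2% and 8.53% of all genes. In RP against Null 0 were called, and Bbc3 alone had an unadjusted p under 0.05.

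No feedback regulator, repair or metabolism target passed the test in RP against Null thymus. Mdm2 averaged 147 ± 3.86 CPM in RP and 141 ± 2.95 CPM in Null, against 234 ± 18.3 CPM in Het, and Ppm1d, the phosphatase that counteracts ATM signalling, averaged 51.5 ± 2.76 CPM in RP and 50 ± 1.71 CPM in Null, against 101 ± 3.74 CPM in Het (SD, n = 4 each). Of 10 feedback genes 5 were lower in RP than in Het thymus, where 10.2% of all genes were lower and 8.53% higher. Polk, a translesion DNA polymerase, averaged 29.2 ± 0.729 CPM in RP and 29.5 ± 3.53 CPM in Null, against 158 ± 7.02 CPM in Het, and Mgmt, which reverses guanine alkylation, averaged 3.99 ± 0.599 CPM in RP and 3.29 ± 0.708 CPM in Null, against 22.7 ± 2.49 CPM in Het. Of 11 repair genes 3 were lower and 3 higher in RP than in Het thymus, to be read against the same shares of all genes. Of 14 metabolism genes tested 8 were lower than in Het, against the same 10.2% of all genes. Dglucy, which encodes D-glutamate cyclase, had 5.44, 5.57, 6.05 and 7.01 CPM in RP mice, against 6.63, 8.52, 7.59 and 7.27 CPM in Null mice and 133 to 160 CPM in Het mice. RP and Null overlapped for Dglucy, at a log2 difference of -0.32 ± 0.10 (unadjusted p = 0.00505, adjusted p = 0.654 in edgeR), while its log2 difference of RP from Het was -4.60. In these 3 lists edgeR called 0 genes in RP against Null and DESeq2 called 0, with Dglucy alone at an unadjusted p under 0.05.

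**Figure D3:**
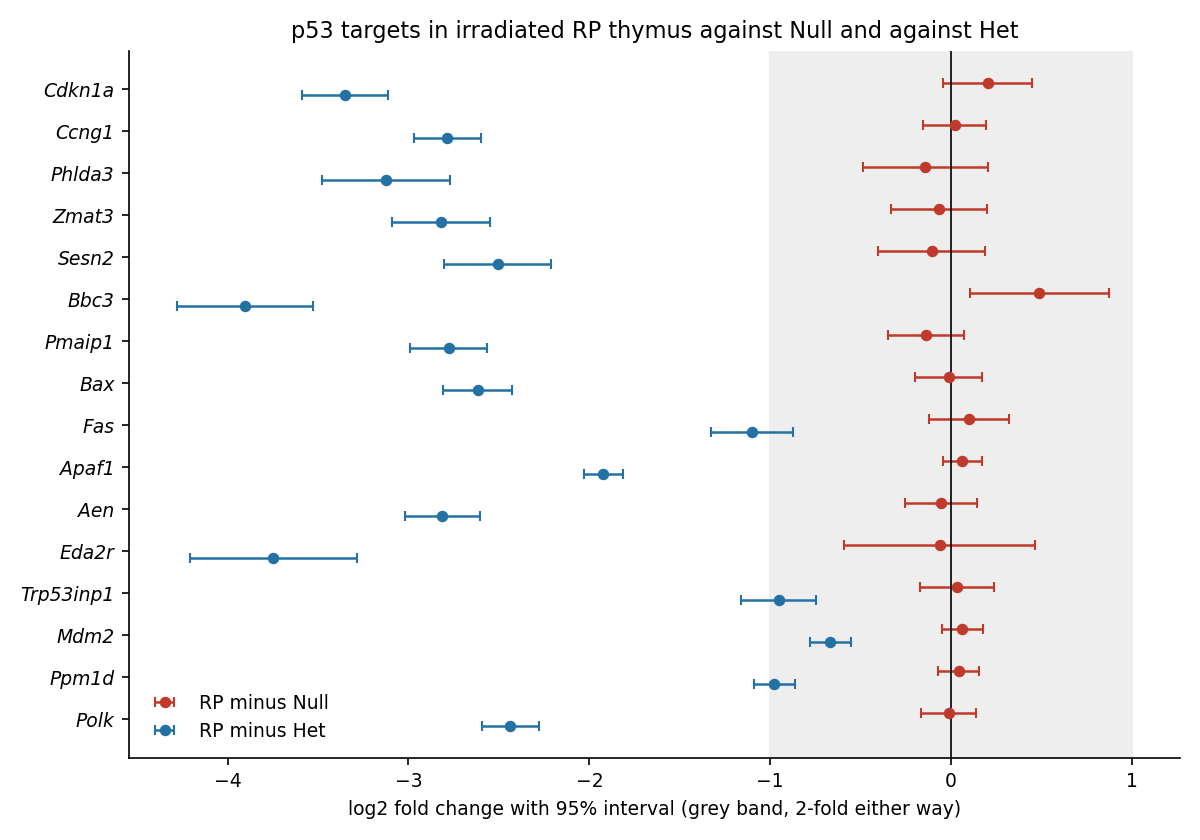
Log2 fold change with its 95% interval for 16 p53 targets and regulators, RP minus Null in red and RP minus Het in blue, with grey for changes of under 2-fold. All 16 red intervals lie inside the grey band and all 16 blue points lie left of 0, from Mdm2 at -0.67 to Bbc3 at -3.90.

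The plot of the targets gives the difference from Null with the width that 4 mice a group allow. The widest red interval is that of Eda2r, -0.59 to 0.47, at 0.487 ± 0.124 CPM in RP and 0.51 ± 0.113 CPM in Null, and the Mdm2 interval is -0.05 to 0.17. A p that misses the threshold does not show that the groups act alike, so these intervals bound the difference that remains possible.

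A wider set of genes was chosen by Het against AD thymus, where neither group is RP or Null. The choice came from the same fit, so RP and Null libraries entered its filter and its estimate of the spread. Whether p53 itself sets these transcripts was not tested. In the set were 424 genes called and at least 2-fold higher in Het than in AD thymus, and 67 called and at least 2-fold lower. At any fold change, 8.27% of all genes were called higher and 5.69% lower in Het than in AD. In RP against Null, 5.18% of all genes had an unadjusted p under 0.05. Of the 424, edgeR called 0, DESeq2 called 0, and 25 had an unadjusted p under 0.05, with a median log2 fold change of -0.0125. Of the 67, both tools called 0 and 6 had an unadjusted p under 0.05, with a median of -0.0471. Against Het, whose libraries chose the set, 364 of the 424 were lower in RP and 32 of the 67 were higher. Of all genes, 10.2% were lower and 8.53% higher in RP than in Het thymus. The 36 genes of replication and mitosis that p53 is known to repress through the DREAM complex and E2F had a median of 0.00538 in RP against Null, with 0 called by either tool and 0 at an unadjusted p under 0.05, while 20 of them were higher in RP than in Het thymus, where 8.53% of all genes were.

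Over all genes, RP and Null libraries were mixed. The distance between libraries, the root-mean-square difference of log2 CPM over the genes tested, averaged 0.418 between RP libraries, 0.482 between Null libraries and 0.456 between RP and Null libraries. The mean between the groups exceeded that within them by 0.00574, with an exact permutation p of 0.257 over the 35 splits of 8 libraries. RP and Het libraries lay 0.609 apart on average, 0.117 more than within those groups, with an exact permutation p of 0.0286, which is the smallest that 4 against 4 can give. RP and AD libraries lay 0.448 apart, 0.0137 more than within those groups (exact permutation p = 0.143). Leaving out any one RP library turned the sign of the RP and Null value, to between -0.00693 and -0.00335. Leaving out any one Null library raised it, to between 0.0148 and 0.0175. The within-group mean pools all pairs, so a library left out of either group gives the pairs of the other group more weight. Null pairs lay farther apart than RP pairs, so this change of sign cannot show whether the groups differ.

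**Figure D4:**
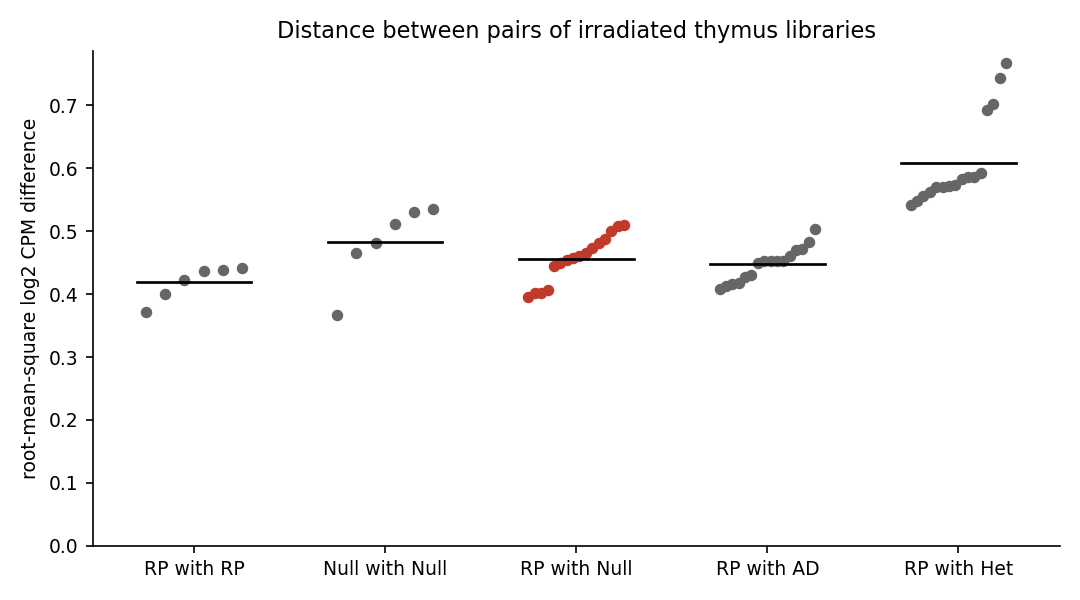
Root-mean-square log2 CPM difference for each pair of irradiated thymus libraries, within RP, within Null, and of RP with Null, AD and Het, with the mean as a line. RP with Null (mean 0.456) lies between RP with RP (0.418) and Null with Null (0.482), and RP with Het (0.609) lies above all.

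Most genes had a narrow bound on the difference of RP from Null. The 95% interval lay within 2-fold in both directions for 18727 of 22206 genes (84.3%), and for 97.9% of the 14819 genes whose mean log2 CPM reached 1. The median absolute log2 difference was 0.10 from Null and 0.215 from Het. Unadjusted p under 0.05 was reached by 1151 genes (5.18%), 2.5% higher and 2.68% lower, and groups did not overlap for 926 genes (4.17%). Without a filter on low counts the share within 2-fold was 54.0%.

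**Figure D5:**
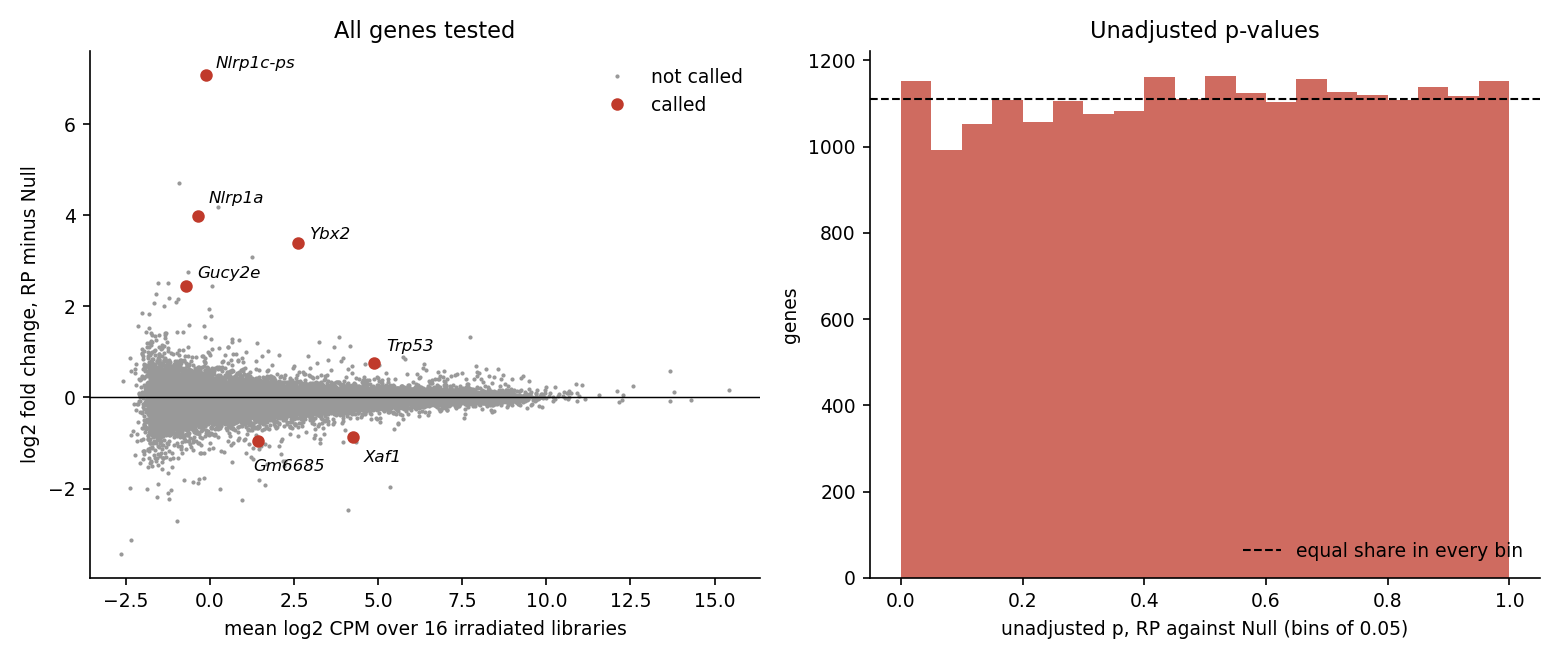
Left, log2 fold change of RP minus Null against mean log2 CPM over the 16 irradiated libraries for 22206 genes, with the 7 called genes in red; right, the number of genes in each bin of unadjusted p. The called genes reach 7.09 for Nlrp1c-ps, most other genes lie near 0, and the bin below 0.05 holds 1151 genes, close to the dashed line of equal shares.

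Beyond chromosome 11, the genes nearest to a call were given by rank and did not pass in edgeR. Those higher in every RP than in every Null library included Klc3 (kinesin light chain 3), Crlf2 (a subunit of the TSLP receptor), Fbxl12 (an F-box protein), Cxxc1 (a CpG-binding subunit of histone methyltransferase complexes) and Socs1 (an inhibitor of cytokine signalling). Such a separation was seen in 2.3% of all genes. Klc3 had 21.9, 19.7, 23.5 and 19.7 CPM in RP mice, against 13.3, 13.1, 17.4 and 14.7 CPM in Null mice, a log2 difference of 0.53 ± 0.10 (adjusted p = 0.131). Socs1 had 34.2, 31.8, 35.7 and 31.6 CPM in RP mice, against 23.0, 19.4, 27.4 and 27.4 CPM in Null mice, a log2 difference of 0.46 ± 0.10 (adjusted p = 0.264). The log2 differences of Crlf2, Fbxl12 and Cxxc1 were 0.57, 0.39 and 0.27. Further genes of this rank were Hist1h2af, a histone H2A gene with near-identical copies, at 8.05 ± 1.26 CPM in RP and 4.96 ± 0.32 CPM in Null, and the predicted gene Gm42427 at 11.2 ± 2.85 CPM in RP and 5.93 ± 0.54 CPM in Null. DESeq2 called all 7 genes of this group.

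Among those lower in RP, Csmd1, a complement control gene, had 7.3, 8.19, 6.83 and 7.19 CPM in RP mice, against 10.6, 11, 11.4 and 11.2 CPM in Null mice. Every RP library lay below every Null library, as in 1.87% of all genes (log2 difference -0.58 ± 0.11, adjusted p = 0.139), and Csmd1 was also lower in RP than in Het thymus (-0.57 ± 0.11, adjusted p = 0.00161 in edgeR). Siglecg, a lectin of B cells, averaged 1.88 ± 0.144 CPM in RP and 4.1 ± 1.66 CPM in Null, with Null-604 highest at 6.56 CPM. Avil (advillin, an actin-binding protein), Dnm3 (a dynamin), Gm1821 and the X-linked lymphocyte gene Xlr4b had log2 differences of -0.58, -0.67, -0.80 and -0.35. Dnm3 averaged 1.89 ± 0.176 CPM in RP and 3.01 ± 0.357 CPM in Null, against 17.3 ± 3.62 CPM in Het. Of these genes, DESeq2 called all except Dnm3 and Xlr4b.

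In the other lists of pathways, Xaf1 and Nlrp1a were the only genes that edgeR called in RP against Null. At an unadjusted p under 0.05, where 2.5% of all genes were higher and 2.68% lower in RP, the counts of members were read against these shares. In RP against Null edgeR called 0 of 25 cholesterol synthesis genes and DESeq2 called 0, with 5 higher at an unadjusted p under 0.05, a larger share than over all genes, and a median of 0.14. Hmgcs1, Cyp51 and Mvk, enzymes of the pathway, had log2 differences of 0.17, 0.19 and 0.28. For 4 of the 25, Hmgcs1 and Cyp51 among them, every RP library lay above every Null library, against 2.3% of all genes. Against Het, 16 of the 25 were higher in RP, where 8.53% of all genes were. Interferon-stimulated genes numbered 30, of which Xaf1 alone was called, with a median of -0.0167 and no other member at an unadjusted p under 0.05. The 23 immediate early genes had a median of 0.06, with 0 called by either tool and 3 higher at an unadjusted p under 0.05, again a larger share than over all genes. Their median was -0.0295 without Null-593. Junb averaged 44.1 ± 4.4 CPM in RP and 33.2 ± 6 CPM in Null, Jund 23 ± 0.709 CPM in RP and 19.6 ± 2.61 CPM in Null, and Zfp36 36.5 ± 1.09 CPM in RP and 32.2 ± 1.29 CPM in Null.

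Of 11 inflammasome genes Nlrp1a alone was called by edgeR, and DESeq2 also called Nlrp1b. The DNA sensor Aim2 averaged 15.9 ± 1.29 CPM in RP and 19 ± 1.5 CPM in Null (log2 difference -0.25 ± 0.09, adjusted p = 0.843 in edgeR). For Aim2 every RP library lay below every Null library, as in 1.87% of all genes. Oxidative phosphorylation genes (25, median -0.0173), genes of PPAR targets and fatty acid oxidation (30, median -0.097) and heat shock chaperones (15, median -0.0118) had 0 called by either tool, with 1, 0 and 0 at an unadjusted p under 0.05. These medians ranged from -0.0766 (without Null-593) to 0.033 (without Null-604), from -0.182 (without Null-593) to 0.0123 (without Null-856) and from -0.172 (without Null-593) to -0.00885 (without Null-856) in the same order of lists. Of 19 clock genes edgeR and DESeq2 called 0 and 2 were lower at an unadjusted p under 0.05, led by Clock with 51.9 ± 2.91 CPM in RP and 60.8 ± 2.28 CPM in Null (log2 difference -0.23 ± 0.06, adjusted p = 0.534 in edgeR).

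Markers of other cell types were read as sums and by member. B and plasma cell markers summed to 614 to 716 CPM in RP and 681 to 869 CPM in Null, with a median log2 difference of -0.38 over 20 genes, of which 7 were lower at an unadjusted p under 0.05, against 2.68% of all genes, and 0 were called by either tool. Ms4a1 (CD20) had 6.43, 6.73, 6.21 and 8.35 CPM in RP mice, against 9.81, 14.5, 12.8 and 12.1 CPM in Null mice. The B cell factor Pax5 averaged 2.59 ± 0.319 CPM in RP and 5.46 ± 3.96 CPM in Null, and Fcrla 2.24 ± 0.286 CPM in RP and 4.7 ± 3.07 CPM in Null. Null-604 was the highest Null library for all of these, and without it the median of the list was -0.24.

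Dendritic cell markers summed to 696 to 813 CPM in RP and 713 to 833 CPM in Null, with 4 of 11 lower at an unadjusted p under 0.05, against 2.68% of all genes, and 0 called by edgeR. Their log2 differences ran from -0.639 to 0.177, with a median of -0.171. The cross-presenting cell marker Xcr1, which DESeq2 called, had 3.22, 4.94, 4.12 and 5.33 CPM in RP mice, against 5.92, 6.92, 6.65 and 7.97 CPM in Null mice. Its groups did not overlap (log2 difference -0.64 ± 0.16, adjusted p = 0.426 in edgeR), nor did those of Clec9a, another marker of these cells, at 2.54 ± 0.766 CPM in RP and 3.86 ± 0.403 CPM in Null. Every RP library lay below every Null library for 3 of the 11 markers, against 1.87% of all genes. Thymic epithelium (16 genes, median 0.015), macrophages (16, median -0.14), endothelium (10, median -0.109) and fibroblasts (12, median 0.0914) had 0 called by either tool. Leaving out 1 library at a time moved these medians, for thymic epithelium to between -0.014 (without Null-593) and 0.0682 (without RP-649), for macrophages to between -0.201 (without Null-593) and -0.0406 (without Null-604), for endothelium to between -0.17 (without Null-604) and 0.01 (without Null-856), and for fibroblasts to between -0.0667 (without Null-604) and 0.188 (without Null-856). Krt8, a keratin of thymic epithelium, averaged 239 ± 1.98 CPM in RP and 203 ± 16.1 CPM in Null, against 382 ± 31.8 CPM in Het (log2 difference of RP from Null 0.24 ± 0.07, adjusted p = 0.631 in edgeR).

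Neutrophil markers had a median of -0.26 over 11 genes, which was -0.12 without Null-604, -0.405 without Null-593 and -0.418 without RP-649. The log2 differences of these genes ran from -0.852 to 0.449, and 0 were called by either tool. At an unadjusted p under 0.05, 2 were lower, against 2.68% of all genes. Among the lower members, Csf3r averaged 3.54 ± 0.239 CPM in RP and 5.01 ± 0.56 CPM in Null. Cxcr2, also lower, averaged 0.917 ± 0.19 CPM in RP and 1.66 ± 0.482 CPM in Null. Cytotoxic lymphocyte markers had a median of -0.112 over 12 genes, which was -0.0381 without Null-604, with 0 called by either tool. Their log2 differences ran from -1.97 to 0.528, and 2 were lower at an unadjusted p under 0.05, against 2.68% of all genes. Among them the receptor gene Klrk1 averaged 3.69 ± 0.271 CPM in RP and 5.45 ± 0.48 CPM in Null. The log2 difference of Gzma was -1.97 with all libraries and -0.02 without Null-604. Hepatocyte genes were highest in RP-653 and RP-656, with Alb at 0.895, 40.5, 1.09 and 14.2 CPM in RP mice, against 0.421, 2.16, 3.19 and 0.8 CPM in Null mice, and Ttr at 0.63, 3.38, 1.34 and 9.35 CPM in RP mice, against 0.388, 0.832, 0.85 and 0.633 CPM in Null mice. Erythroid (8 genes, median 0.151) and adipocyte markers (14, median -0.27) varied widely within both groups, and their medians ranged from -0.0981 (without RP-654) to 0.349 (without RP-653) and from -0.453 (without Null-604) to 0.165 (without Null-856). Thymocyte genes had a median of 0.07 over 26 genes, with log2 differences from -0.301 to 0.253. Bcl11b averaged 529 ± 20.5 CPM in RP and 485 ± 22.2 CPM in Null. Dntt averaged 1410 ± 137 CPM in RP and 1200 ± 136 CPM in Null. These were the only members at an unadjusted p under 0.05, where 2.5% of all genes were higher, and neither was called. Without Null-604 their unadjusted p was 0.0789 and 0.0959 in edgeR. The part of these cell types in the genes compared above was not tested.

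The comparison of RP with AD thymus tested whether RP stood apart from the other mutant. edgeR called 0 of 22206 genes (0%), with 1525 at an unadjusted p under 0.05 (6.87%), and DESeq2 called 14. When only the RP and AD libraries were fitted edgeR called 47, and without AD-630 it called 4. The 71 p53 target genes had a median log2 fold change of 0.0309 in RP against AD, and 0 of them were called by edgeR. Cdkn1a averaged 4.13 ± 0.254 CPM in RP and 4.4 ± 0.666 CPM in AD, with a log2 difference of -0.09 ± 0.11 (adjusted p = 0.89 in edgeR).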

How the data were processed

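RNA sequencing counts of 16 irradiated thymus libraries (RP, AD, Het and Null, 4 mice each) were used, of 42 samples. The deposited table holds the authors' raw counts for 49585 genes. Per the submitters' processing notes, the aligner was STAR 2.6.0b, the build GRCm38 and another tool DESeq2, and the counter, its strand setting and the annotation are not given in the sources used here. Each of the 42 columns was assigned to its sample from the animal, genotype and tissue in its name, and 0 were unmatched. Symbols and positions came from GENCODE M21, which matched 49326 identifiers, and promoter sequences from RefSeq on GRCm38.p6.

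From the counts, genes were filtered with filterByExpr (22206 kept), scaled by TMM and tested in 1 fit over 16 libraries by edgeR's robust quasi-likelihood F test (R 4.3.3, edgeR 4.0.16, limma 3.58.1; biological coefficient of variation 0.153), with a call at a Benjamini-Hochberg adjusted p under 0.05. CPM are counts scaled to the TMM library size, not corrected for gene length, so levels are not compared between genes. Log2 CPM used a prior count of 2. The standard error is the absolute log2 fold change over the square root of F, and the 95% interval uses the t quantile on the total degrees of freedom. Counting intervals are exact and cover counting error only. Alternatives were DESeq2 1.42.0, RLE scaling, an Xist covariate, no filter, the 2 groups alone and each library left out. Scripts were tested on simulated data.

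The libraries are separate mice by the labels, and 12 within-group pairs had a chi-square per degree of freedom of 4.04 to 37.9, so none was a copy. The p-values describe the spread among these mice. Genes were named by rule: Trp53, all called genes, 16 p53 targets and regulators, the 8 uncalled genes in each direction with the smallest p whose mean log2 CPM reached 1, and at most 4 members per list by smallest p. Some genes that meet the rule are not reported here. Members, lists and rules were chosen with earlier results of these data known, so no list was tested as a set.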

Additional observations from a re-analysis of the deposited data

Results flagged for a closer look

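For 168 groups of 4 libraries (a gene or a marker sum in RP or in Null), the library farthest out was compared with the other 3, and 15 had a gap that chance gives in about 1 of 20 groups. Null-604 was apart in 8 of them. Gzma stood at 612 CPM in it (39.5 to 58.1 CPM in the other Null libraries), the cytotoxic lymphocyte markers summed to 659 CPM (80.8 to 96.3 CPM), Ybx1 stood at 633.4 CPM (396 to 413 CPM) and Fcrla at 9.29 CPM (2.88 to 3.47 CPM). In the same library Bcl11b stood at 452 CPM (492 to 499 CPM), Mdm2 at 137 CPM (143 CPM in each of the others) and the dendritic cell markers summed to 713 CPM (816 to 833 CPM). Nlrp1c-ps was also apart there, at 0.0333 CPM, which is 1 count, against 0 in the other Null libraries.

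Null-593 was apart with Jund at 15.7 CPM (20.4 to 21.3 CPM in the other Null libraries) and Myh10 at 27 CPM (19.8 to 21 CPM). RP-649 was apart with Cdkn1a at 3.75 CPM (4.21 to 4.28 CPM in the other RP libraries), Ppm1d at 55.6 CPM (49.8 to 50.4 CPM), Gzma at 61.7 CPM (42 to 45.2 CPM) and Csf3r at 3.18 CPM (3.65 to 3.68 CPM). RP-653 was apart with Fbxl12 at 91.2 CPM (104 to 106 CPM).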

How the results depend on the processing

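The count of genes called in RP against Null was 7, and 30 with DESeq2, of which 12 lay on chromosome 11, 10 within 10 Mb of Trp53 and 7 were shared with edgeR's. It ranged from 4 to 8 when a library was left out, and it was 6 with only the RP and Null libraries fitted, 5 of them among the 7. It was 5 with the Xist covariate, where Xaf1 and Gm6685 missed the threshold (adjusted p = 0.0582 each). Trp53, Ybx2, Nlrp1a and Nlrp1c-ps were called under every alternative run. RP against AD gave 0 calls, 14 with DESeq2, 47 with only those groups fitted and 0 to 4 with a library left out, and RP against Het gave 2907 to 4775 with a library left out. The share of genes with an interval within 2-fold was 84.3%, 54.0% without a filter and 79.2 to 80.2% with a library left out. The distance of RP from Null ranged from -0.00693 to 0.0175 with a library left out. It was below 0 without any one RP library and above 0 without any one Null library, since its within-group mean pools the pairs of both groups. Small log2 fold changes crossed 0 when a library was left out, with ranges of -0.0175 to 0.0955 for Trp53inp1, -0.0946 to 0.0355 for Polk, -0.0971 to 0.0587 for Bax, -0.0124 to 0.0637 for Ccng1, -0.241 to 0.0604 for Eda2r, -0.00138 to 0.0569 for Ybx3, -0.107 to 0.0452 for Aen, -0.204 to 0.0584 for Sesn2 and -0.166 to 0.0897 for Ybx1. No cause of these changes was tested. p53 target genes called in RP against Null numbered 0 under every alternative run. No paired analysis was possible because the irradiated groups share no animal number. Over the lists and the libraries left out one at a time, 10 list medians moved by more than the spread between libraries, among them the clock genes, at -0.124 without Null-604. The 2-fold bound was not met for the low genes Gdf15 and Rprm and was met for Eda2r at a like level, and the part of depth in this was not tested.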
